A study of Mus musculus with 47 samples.

Results

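Expression was compared between G2M-sorted mouse embryonic stem cells (ESCs) that had received an siRNA against Tdg (siTdg) and those that had received a control siRNA (siC). The comparison holds 4 of the 47 samples of the series, 2 libraries a group, chosen by their titles and not by any measured value. All were E14Tg2A cells, an established mouse ESC line, grown without serum in N2B27 medium with the kinase inhibitors PD0325901 and CHIR99021 and with LIF. The matching G1-sorted siC and siTdg libraries, again 2 of each, entered the same model and served as the neighbouring condition. The titles write G2M, while the series' own nomenclature groups S, G2 and M together, so the sorted fraction may include S-phase cells. How the cells were sorted, and how long after the siRNA, is not given in the sources used here.

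Thymine DNA glycosylase, the product of Tdg, works in base excision repair. It removes thymine or uracil mispaired with guanine and also excises the oxidised forms of 5-methylcytosine that TET enzymes make. In this way it takes part in active DNA demethylation. The title of the series names the question, how TDG bears on p53 through the cell cycle. p53, encoded by Trp53, is a transcription factor that drives growth arrest, apoptosis and repair genes and is held in check by the ubiquitin ligase Mdm2. Cultures of mouse ESCs also hold a small and changing population of 2-cell-like cells, in which the transcription factor Dux is a known activator. These cells express genes of the mouse embryo at the cleavage stage, among them members of the Zscan4, Usp17-like and Pramel families.

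Expression is given as RPKM, reads scaled to library depth and gene length, and a change is siTdg minus siC on the log2(RPKM + 0.5) scale after each library was set to the same median. Reads recovered per G2M library ranged from 24330697 to 31877353. Of 26182 listed genes 12321 had a mean of at least 0.5 RPKM over the 4 G2M libraries and were tested. Of 65 G2/M genes 57 were higher in G2M than in G1 among siC libraries (median log2 difference 0.34) and 54 among siTdg libraries (0.40), where 49.5% and 41.2% of all genes were higher. Pou5f1, Nanog and Zfp42, defining genes of ESCs, lay between 502 and 815 RPKM in the 4 libraries. Deviations from the group means correlated across genes at 0.56 to 0.73 between libraries of the same number. Nothing in the labels ties the replicates to separate cultures, and the p-values below thus rest on library-to-library spread that could be technical.

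Tdg fell in the knock-down. The siC G2M libraries held 61.6 and 63.1 RPKM, and their siTdg counterparts 12.3 and 8.63 RPKM. The groups were far apart. The log2 change was -2.54 (SE 0.17, adjusted p = 0.0195 by limma), which leaves 17.2% of the siC level. In G1 the log2 change of Tdg was -2.64, and the difference between the phases had an unadjusted p of 0.688 by limma. An exact two-sided permutation test of 2 libraries against 2 cannot go below p = 0.333. The call rests on several libraries: the adjusted p by limma was 0.237 without siC G2M replicate 1, 0.415 without siC G2M replicate 2, 0.0814 without siTdg G2M replicate 2, 0.0804 and 0.0811 without siC G1 replicate 1 or 2, and 0.110 with the 4 G2M libraries alone, while the log2 change stayed between -2.76 and -2.32.

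Tdg was the single gene called among 12321. At an adjusted p under 0.05 limma called 0 genes higher (0%) and 1 lower (0.00812%). The next smallest adjusted p was 0.99979. At an unadjusted p under 0.05 there were 232 genes, 182 of them higher (1.48%) and 50 lower (0.406%). That number was 118 without siTdg G2M replicate 2 and between 163 and 300 without any other library. The 2 siTdg libraries both lay above the 2 siC libraries for 1542 genes (12.5%) and both below for 1477 (12%). Most genes moved little: 98.58% had a log2 change smaller than 0.5 in either direction. The median SE was 0.15.

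**Figure D1:**
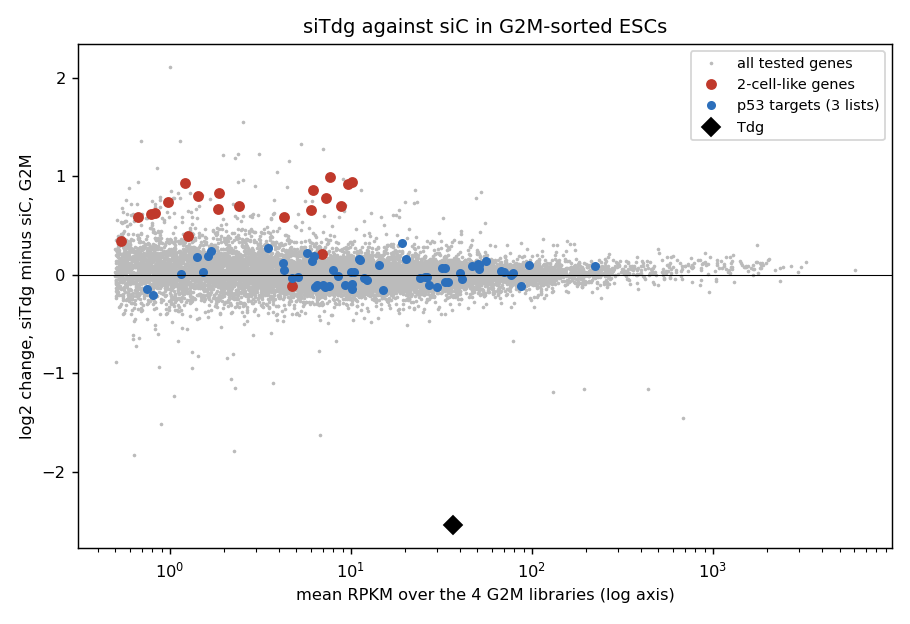
Log2 change (siTdg minus siC in G2M) of each of the 12321 tested genes against its mean RPKM over the 4 G2M libraries on a log axis, with Tdg, the 2-cell-like list and the 3 lists of p53 targets marked. Tdg lies alone at -2.54, the p53 targets lie around 0, and 20 of 21 2-cell-like genes lie above 0.

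Of the 12 named genes with the smallest p on the higher side, 8 belonged to the Usp17-like, Pramel and Zscan4 families. Some members of these families are known from 2-cell-like cells. Of the 8, Pramel6 and Pramel14 were higher in G2M than in G1 with siC (log2 difference 0.36 and 0.13), while the rest were lower. Naming required that the siC and siTdg G2M libraries did not overlap, so the lack of overlap is no result for these 12 genes. The entries of the 2-cell-like list matched 31 genes of the tables, and 21 of them passed the minimum level. None of the 21 was called in the model without a term for replicate number, so the values below describe these libraries. Of the 21, 20 had a log2 change above 0, and the median was 0.70 against 0.01 over all tested genes. In 19 of 21 the siTdg libraries both lay above the siC libraries, where 12.5% of all genes did, and the same number had an unadjusted p under 0.05, where 1.48% of all did. The median was 0.67 from replicate 1 alone and 0.73 from replicate 2 alone. Dux and Pramel16 reached the minimum level through the siTdg libraries, since their siC means were under 0.5 RPKM. The list was written with earlier results of these data known and is no independent evidence. In these bulk libraries more cells in the 2-cell-like state and more RNA per such cell cannot be told apart.

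Zscan4 genes, which encode zinc-finger and SCAN-domain proteins known for telomere maintenance in ESCs, were by RNA the most abundant named family of the list. Zscan4f was at 7.03 and 5.94 RPKM in siC and at 12.6 and 12.8 RPKM in siTdg, a log2 change of 0.92 (SE 0.19) that rests on 259 to 740 reads per library. Zscan4a was at 4.27 and 4.22 RPKM in siC and at 8.23 and 8.03 RPKM in siTdg, a log2 change of 0.86 (SE 0.16). Lack of overlap between the groups was a condition for naming both genes. Zscan4c was at 7.21 and 6.06 RPKM in siC and 11.9 and 10.4 RPKM in siTdg (log2 change 0.70). Zscan4b was at 5.94 and 4.59 RPKM in siC and 9.31 and 9.38 RPKM in siTdg (0.78). Zscan4d was at 4.89 and 4.19 RPKM in siC and 7.65 and 7.21 RPKM in siTdg (0.65). All 5 copies thus stood higher in both siTdg libraries, with adjusted p of 0.99979 or more by limma.

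Zscan4b, Zscan4c, Zscan4d and Zscan4f lie near each other on chromosome 7, and the sequences upstream of their starts are nearly the same. Zscan4a has no sequence here and was not compared. The sequences are shown because the copies moved together and because TDG acts on modified cytosines of CG dinucleotides, which are printed in capitals. Each is the 250 bases before the annotated start on the gene's own strand, from RefSeq, build GRCm38.p6: Zscan4b at chr7:10905051-10905300 on the minus strand, Zscan4c at chr7:11005495-11005744 on the plus strand, Zscan4d at chr7:11166149-11166398 on the minus strand and Zscan4f at chr7:11397665-11397914 on the plus strand.
Zscan4b: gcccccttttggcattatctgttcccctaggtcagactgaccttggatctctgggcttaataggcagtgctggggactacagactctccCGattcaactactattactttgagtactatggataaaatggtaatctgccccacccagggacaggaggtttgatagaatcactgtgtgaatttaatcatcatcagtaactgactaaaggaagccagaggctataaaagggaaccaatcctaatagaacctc
Zscan4c: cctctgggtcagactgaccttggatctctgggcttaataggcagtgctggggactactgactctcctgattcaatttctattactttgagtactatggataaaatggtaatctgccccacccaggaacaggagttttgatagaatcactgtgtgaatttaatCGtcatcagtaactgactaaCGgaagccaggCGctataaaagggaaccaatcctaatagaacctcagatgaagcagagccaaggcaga
Zscan4d: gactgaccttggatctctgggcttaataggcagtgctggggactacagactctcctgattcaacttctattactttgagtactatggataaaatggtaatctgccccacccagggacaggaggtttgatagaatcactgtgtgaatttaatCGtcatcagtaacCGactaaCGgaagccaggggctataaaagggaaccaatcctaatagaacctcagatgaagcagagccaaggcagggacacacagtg
Zscan4f: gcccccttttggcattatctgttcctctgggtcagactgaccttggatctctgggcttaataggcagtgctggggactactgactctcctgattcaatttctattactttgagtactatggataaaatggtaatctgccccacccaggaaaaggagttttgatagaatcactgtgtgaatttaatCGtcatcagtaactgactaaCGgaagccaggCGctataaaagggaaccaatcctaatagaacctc

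The upstream sequences of Zscan4c and Zscan4f shared 226 of 227 aligned bases (99.6%), and the lowest identity between any pair was 94.7%, for Zscan4b and Zscan4c. Zscan4b held 1 CG and the other sequences 3 each. Of all 27025 upstream sequences of this length 38.1% held 3 or fewer, the median was 6, and 91.7% held at least 1. For 14 of the 21 tested 2-cell-like genes RefSeq's table gave a sequence, with a median of 1 CG and a range of 0 to 20. These counts describe letters only, since methylation in G2M cells was not analysed here. Families of near-identical copies can also trade reads, so the split between copies is uncertain.

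Usp17-like genes encode ubiquitin-specific proteases, and Usp17lb had the smallest unadjusted p among the 12 named higher genes. Usp17lb was at 1.43 and 1.20 RPKM in siC and 2.34 and 2.44 RPKM in siTdg, a log2 change of 0.67 (SE 0.11). Usp17le was at 1.67 and 1.73 RPKM in siC and 3.03 and 3.14 RPKM in siTdg, a log2 change of 0.70 (SE 0.13). Usp17lc, at 0.791 and 0.568 RPKM in siC and 1.88 and 1.62 RPKM in siTdg, had a log2 change of 0.93. The siTdg libraries were above the siC libraries in Usp17lc, while lack of overlap was a condition for naming Usp17lb and Usp17le. Usp17ld and Usp17la had log2 changes of 0.61 and 0.39.

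Pramel genes encode leucine-rich repeat proteins related to PRAME. Pramel31 was at 1.12 and 1.07 RPKM in siC and 2.25 and 2.20 RPKM in siTdg, a log2 change of 0.77 (SE 0.13). Pramel6 was at 3.46 and 3.17 RPKM in siC and 4.91 and 5.57 RPKM in siTdg, a log2 change of 0.59 (SE 0.11). Both genes were named on condition that the groups did not overlap. Pramel7, known for steering ESCs toward DNA hypomethylation, was at 0.806 and 1.01 RPKM in siC and 1.77 and 2.16 RPKM in siTdg (0.80). Pramel19 and Pramel16 had log2 changes of 0.83 and 0.59. Pramel31, and Pramel44 (0.70) and Pramel14 (0.60) with it, are not on the 2-cell-like list.

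Among the remaining 2-cell-like genes, the predicted genes Gm8300 and Gm2016 had the highest log2 changes of the list, 0.99 and 0.95. Gm8300 was at 6.05 and 3.99 RPKM in siC and 11.4 and 9.28 RPKM in siTdg. Tmem92, a transmembrane protein gene, was at 0.617 and 0.590 RPKM in siC and 1.42 and 1.26 RPKM in siTdg (0.73). Dux itself was low, at 0.390 and 0.435 RPKM in siC and 0.622 and 0.703 RPKM in siTdg, a log2 change of 0.34 from 20 to 45 reads per library. Both siTdg libraries of these genes stood above both siC libraries. The exceptions of the list were Ddit4l, a regulator of mTOR signalling, at 8.31 and 4.71 RPKM in siC and 8.10 and 6.72 RPKM in siTdg, and Rnf213, a large ubiquitin ligase, at 4.41 and 5.38 RPKM in siC and 5.28 and 3.82 RPKM in siTdg. Their groups overlapped. Of the 10 members under the minimum level, Gm4340, Tcstv1 and Tcstv3 are listed at 0 in all 4 libraries.

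In G1 the same 21 genes had a median log2 change of 0.75, and all 21 were above 0. Over all 12321 genes the G1 median was 0.03, with 7093 above 0. Of the 21, 19 had an unadjusted p under 0.05 in G1, where 2.28% of all genes were higher and 0.966% lower at that level. In G1 most levels were higher than in G2M, with 18 of 21 genes in siC and 18 in siTdg. Zscan4f was, for example, at 15.1 and 9.79 RPKM in siC and 22.8 and 19.7 RPKM in siTdg. Summed over the 21 genes, the G2M libraries held 69.2 and 56.9 RPKM with siC against 112 and 104 RPKM with siTdg, and the G1 libraries 118 and 77.1 RPKM with siC against 177 and 146 RPKM with siTdg. The siTdg libraries of G2M thus lay within the range of the siC libraries of G1. For the difference between the phases 1 of 21 had an unadjusted p under 0.05, where 0.0812% of all genes were higher and 0.227% lower.

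**Figure D2:**
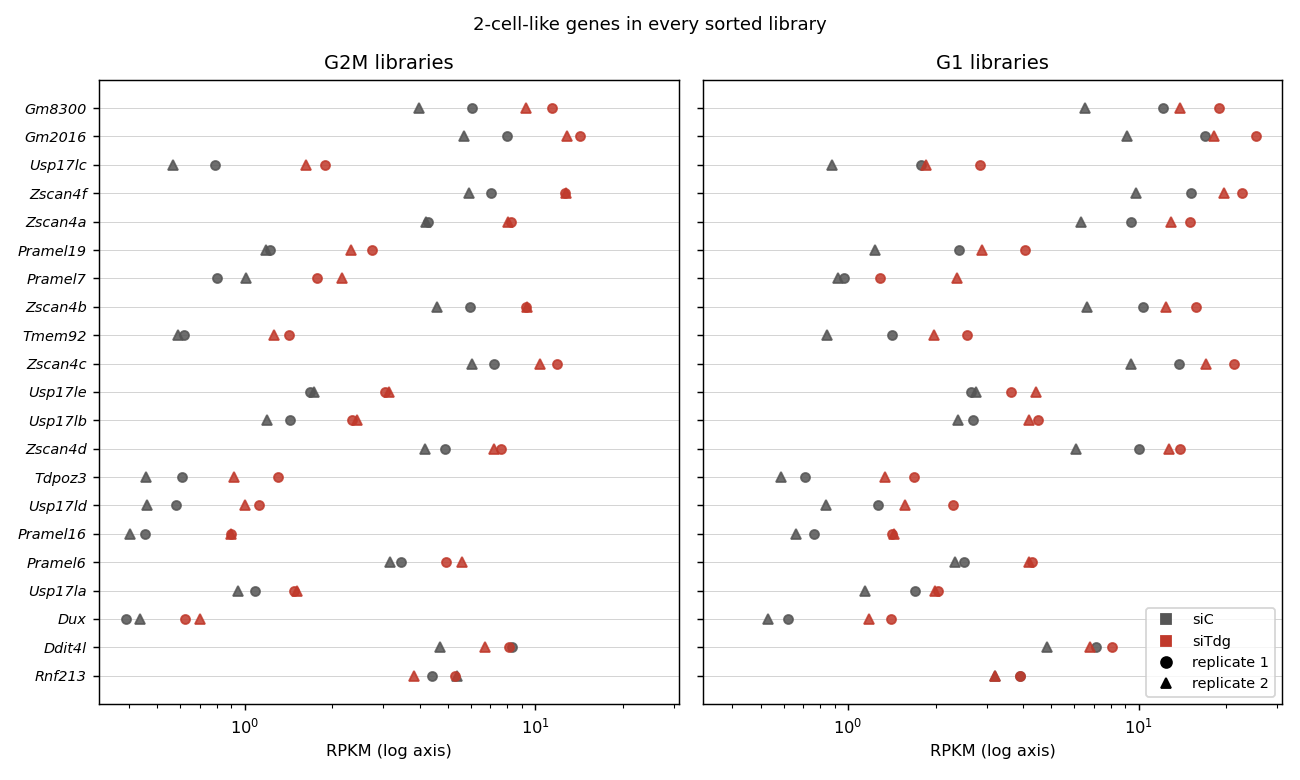
RPKM on a log axis of the 21 tested 2-cell-like genes in each G2M library (left) and each G1 library (right), siC in grey and siTdg in red, replicate 1 as circles and replicate 2 as triangles. In G2M the red points lie right of the grey points for 19 of the 21 genes, and Ddit4l and Rnf213 overlap.

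The remaining 4 of the 12 genes belong to none of these families. Arhgap8, a GTPase-activating protein gene, was at 3.98 and 3.79 RPKM in siC and 5.96 and 6.58 RPKM in siTdg, a log2 change of 0.62 (SE 0.12). Eif4a3l1, a relative of the exon junction helicase gene Eif4a3, was at 7.43 and 6.53 RPKM in siC and 12.3 and 10.3 RPKM in siTdg (0.65). Gpha2, a glycoprotein hormone subunit gene, and Ushbp1 had log2 changes of 0.62 and 0.57. None was called, all with an adjusted p of 0.99979 by limma.

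On the lower side the named genes other than Tdg had log2 changes from -0.95 to -0.34. Scpep1, which encodes a serine carboxypeptidase, was at 84.8 and 109 RPKM in siC and 58.4 and 62.0 RPKM in siTdg, a log2 change of -0.67 (SE 0.17), and had -0.66 in G1. Noxred1, an oxidoreductase-domain gene, was at 2.60 and 3.38 RPKM in siC and 1.57 and 1.41 RPKM in siTdg (-0.81). H4c8, a replication-dependent histone H4 gene, was at 2.18 and 1.64 RPKM in siC and 0.626 and 0.873 RPKM in siTdg (-0.95). All 3 were named on condition that the groups did not overlap, and none was called. Dcaf12, a substrate receptor of a ubiquitin ligase, had a log2 change of -0.34 (SE 0.08), Pacsin2, of endocytic membranes, of -0.38 (SE 0.10) and Prune1, a phosphatase gene, of -0.35 (SE 0.10). These 3 had siC levels between 24.4 and 29.3 RPKM and siTdg levels of at most 22.9 RPKM. Lower-level genes were Ube2j1, a ubiquitin-conjugating enzyme of the endoplasmic reticulum (-0.46), Chrna9, an acetylcholine receptor subunit (-0.50), Il2rg, the common cytokine receptor gamma chain (-0.44), Cep97, a centrosomal protein (-0.39), and Cnih2, an auxiliary protein of AMPA receptors (-0.55).

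Trp53 and its targets gave no call in G2M. Trp53 was at 187 and 183 RPKM in siC and at 182 and 165 RPKM in siTdg, a log2 change of -0.10 (SE 0.10), with the siTdg libraries just below the siC libraries. Mdm2 was at 58.2 and 39.0 RPKM in siC and 56.5 and 47.1 RPKM in siTdg, a log2 change of 0.11 (SE 0.22). Cdkn1a, the cyclin-dependent kinase inhibitor p21, was at 74.5 and 64.9 RPKM in siC and 68.1 and 74.3 RPKM in siTdg, a log2 change of 0.03 (SE 0.12). Ccng1, cyclin G1, was at 103 and 82.3 RPKM in siC and 105 and 93.0 RPKM in siTdg, a log2 change of 0.10 (SE 0.14). For Mdm2, Cdkn1a and Ccng1 the groups overlapped, and the replicates within each group differed by more than the means of siC and siTdg did. The sign of these 3 small values turned negative when siC G2M replicate 2 was left out. That of Cdkn1a also did so without siTdg G2M replicate 2 and with no filter. In G1 the log2 changes were -0.08 for Trp53, 0.12 for Mdm2, 0.08 for Cdkn1a and 0.11 for Ccng1.

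**Figure D3:**
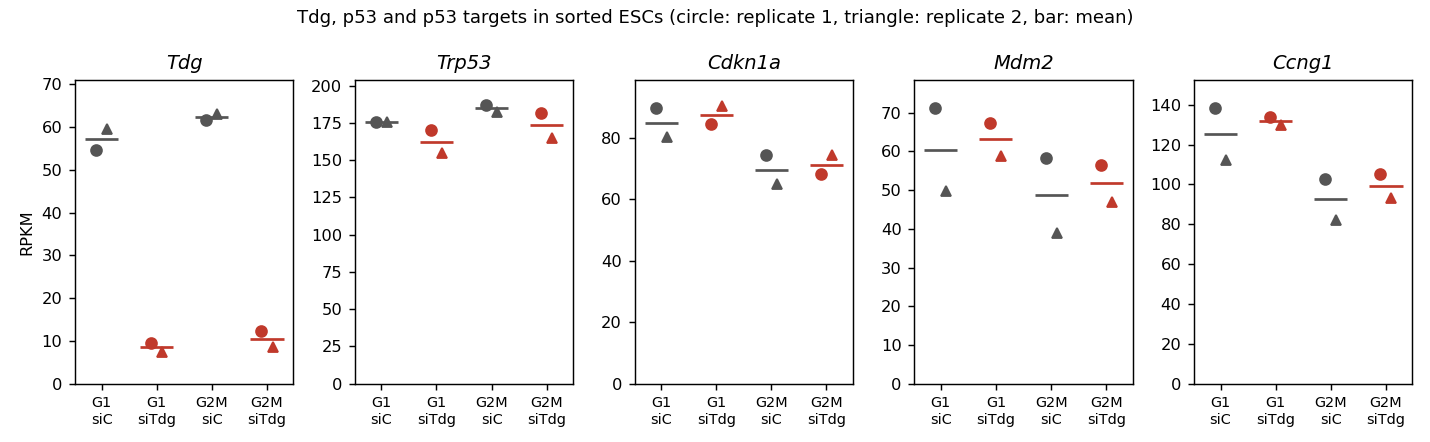
RPKM of Tdg, Trp53, Cdkn1a, Mdm2 and Ccng1 in the 8 sorted libraries, siC in grey and siTdg in red, circles and triangles for replicates 1 and 2 and bars for group means, with each axis starting at 0. Tdg drops from 61.6 and 63.1 to 12.3 and 8.63 RPKM in G2M, while the largest log2 change of the other 4 genes is 0.11.

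The lists of p53 targets had medians near that of all genes. Over the 30 lists, the median kept its sign for 6 and changed it for 24 when 1 library was left out. Of the 3 lists of p53 targets, that of repair and metabolism was among the 6. Of 24 targets of growth arrest and stress 12 were above 0 (median -0.01), of 16 targets of apoptosis 8 (median 0.01) and of 19 targets of repair and metabolism 12 (median 0.05), where 52.8% of all genes were above 0 and the median was 0.01. In none of the 3 lists did a member have an unadjusted p under 0.05. The highest values were 0.32 for Ddit4, an mTOR inhibitor gene, and 0.28 for Pmaip1, which encodes the BH3-only protein Noxa. Ddit4 was at 18.9 and 14.9 RPKM in siC and 17.3 and 26.0 RPKM in siTdg, so its groups overlapped. Of the 17 regulators of p53, Trp53 among them, 6 were above 0, and the median was -0.10. Its lowest members were the acetyltransferase genes Crebbp (-0.31) and Ep300 (-0.25). Crebbp was at 8.28 and 6.87 RPKM in siC and 8.21 and 4.39 RPKM in siTdg, where siTdg replicate 2 alone stood apart.

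Enzymes next to TDG in DNA demethylation and base excision repair gave no call besides Tdg. Dnmt3b, a de novo DNA methyltransferase gene, was at 19.4 and 22.0 RPKM in siC and 16.6 and 15.8 RPKM in siTdg, a log2 change of -0.35 with an unadjusted p of 0.0122, not called. Its groups did not overlap. Besides Tdg it was the sole member of the 20 methylation and demethylation genes with an unadjusted p under 0.05. Tet1, a 5-methylcytosine dioxygenase gene, was at 40.7 and 33.5 RPKM in siC and 37.7 and 20.7 RPKM in siTdg, a log2 change of -0.40 (SE 0.44) that came mostly from replicate 2. Tet2 (-0.01), Dnmt1, the maintenance methyltransferase gene (-0.06), and Uhrf1, its partner (0.10), had small values. Of 22 glycosylase and base excision repair genes 15 were above 0, with a median of 0.01. Mbd4, the glycosylase gene whose substrates overlap those of TDG, was at 10.3 and 9.49 RPKM in siC and 11.6 and 10.6 RPKM in siTdg, a log2 change of 0.16 (SE 0.16).

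Cell-cycle genes had medians near 0 between the siRNAs. Of the 65 G2/M genes 38 were above 0, with a median of 0.01 and values from -0.21 to 0.15. Top2a, the topoisomerase of mitotic chromosomes, was at 234 and 227 RPKM in siC and 239 and 240.4 RPKM in siTdg, against 61.2 and 68.7 RPKM in G1 with siC. Ccnb1, cyclin B1, was at 275 and 261 RPKM in siC and 275 and 269 RPKM in siTdg. Of the 57 G1/S and replication genes 33 were above 0 (median 0.01), of 36 kinase, inhibitor and anaphase-promoting complex genes 25 (0.04), and of 33 homologous recombination and Fanconi genes 15 (-0.01). None of these 4 lists had a member at an unadjusted p under 0.05.

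Replication-dependent histone genes, whose transcripts are made in S phase and lack poly(A) tails, gave no call in G2M. Of 50 tested, 17 were above 0, and the median was -0.11 (-0.15 from replicate 1 and -0.07 from replicate 2). Lower at an unadjusted p under 0.05 were 2, H4c8 and H3c1 (-0.40), where 0.406% of all genes were. Without siC G2M replicate 1 the median was 0.05, and without siC G2M replicate 2 it was -0.21, so its sign rests on siC G2M replicate 1. In 7 of 50 the siTdg libraries both lay below the siC libraries, where 12% of all genes did. In G1 the median was 0.19, with 40 of 50 above 0, where 7093 of all 12321 genes were above 0. For the difference between the phases 6 of 50 had an unadjusted p under 0.05, where 0.0812% of all genes were higher and 0.227% lower at that level, and 0 were called. Most members were low, and summed levels in G2M of 83.9 and 60.9 RPKM (siC) and 72.3 and 59.3 RPKM (siTdg) overlapped.

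Pluripotency genes gave no call. Of 40 core and naive genes 20 were above 0, with a median of 0.00 and none at an unadjusted p under 0.05. Pou5f1, the core factor Oct4, was at 713 and 744 RPKM in siC and 733 and 815 RPKM in siTdg (0.08). Nanog was at 502 and 534 RPKM in siC and 541 and 642 RPKM in siTdg (0.18, SE 0.18). Esrrb (-0.12), Klf4 (-0.09) and Sox2 (0.03) stood on both sides of 0. Of 18 formative and primed genes 9 were above 0. Over all genes 1.48% were higher and 0.406% lower at an unadjusted p under 0.05, and in this list 2 were higher and 1 lower. These were Sox3, a SoxB1 factor gene (0.420 and 0.284 RPKM in siC, 0.840 and 0.628 RPKM in siTdg, log2 change 0.53), the keratin gene Krt18 (0.31) and Dnmt3b. Sox3 had a siC mean under 0.5 RPKM and reached the minimum level through the siTdg libraries.

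Markers of other cell types gave no call, and many did not reach the minimum level. Of 17 fibroblast and feeder markers 6 passed the minimum level, and Dcn and Postn are listed at 0 in all 4 libraries. Vim, vimentin, which ESCs also express, was at 109 and 118 RPKM in siC and 91.1 and 91.0 RPKM in siTdg, a log2 change of -0.32 with an unadjusted p of 0.0381. The summed level of the 6 genes was 229.6 and 244 RPKM in siC and 212 and 185 RPKM in siTdg, most of it Vim and Fn1. Of 15 haematopoietic markers 4 passed, and the globin genes Hbb-b1 and Hba-a1 are listed at 0. Of 16 neural markers 7 passed, of 25 primitive endoderm and trophoblast markers 8, and of 23 primitive streak markers 9, with no member of these 4 lists at an unadjusted p under 0.05. The median log2 changes were 0.11, -0.04, 0.04 and -0.12. Some of the markers that passed were well expressed in siC and siTdg alike, among them Stmn2 and Tubb3 of the neural list and Sparc of the endoderm list.

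Genes of metabolism and stress gave no call. Of 30 genes of cholesterol and fatty acid synthesis 3 were above 0, the median was -0.10 (-0.05 from replicate 1, -0.15 from replicate 2), and in 13 the siTdg libraries both lay below the siC libraries, where 12% of all genes did. None had an unadjusted p under 0.05. The list's median was -0.13 in G1 and -0.11 at 48 h, and stayed between -0.21 and -0.02 under all alternatives run. Of 26 genes of the integrated stress response 18 were above 0 (median 0.08), but the median was -0.09 without siC G2M replicate 1, -0.08 without siTdg G2M replicate 2, 0.23 without siC G2M replicate 2 and 0.27 without siTdg G2M replicate 1. Cth, of cysteine synthesis, was at 34.8 and 34.4 RPKM in siC and 42.4 and 45.6 RPKM in siTdg (0.34), and Ddit3, which encodes CHOP, at 7.43 and 6.35 RPKM in siC and 8.28 and 10.2 RPKM in siTdg (0.39).

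Cytosolic ribosomal protein genes were above 0 for 76 of 78, with a median of 0.10, but 0 had an unadjusted p under 0.05. Replicate 1 gave a median of 0.04 and replicate 2 of 0.17, and in G1 it was 0.31. Across alternatives the G2M median lay between -0.04 and 0.24. Both ends came from leaving out 1 library, so its sign depended on the libraries included. Oxidative phosphorylation genes (54 of 67 above 0, median 0.05) ranged from -0.11 to 0.20 across alternatives. Small nucleolar RNA host genes showed the widest split between replicates, with a median of -0.03 in replicate 1 and 0.47 in replicate 2. Among 20 genes of interferon response and antigen presentation 12 were above 0 (0.07), and H2-K1, a class I histocompatibility gene, was at 5.66 and 5.15 RPKM in siC and 7.79 and 6.90 RPKM in siTdg (0.40). Germline genes silenced by promoter methylation (11 of 21 above 0, median 0.01) and imprinted genes (8 of 19, -0.01), which depend on DNA methylation, gave none at an unadjusted p under 0.05. Heat shock genes (22 of 30, median 0.08), glycolysis genes (14 of 28, 0.00) and genes of Wnt, Nodal and Hedgehog signalling (13 of 26, 0.00) gave no call.

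**Figure D4:**
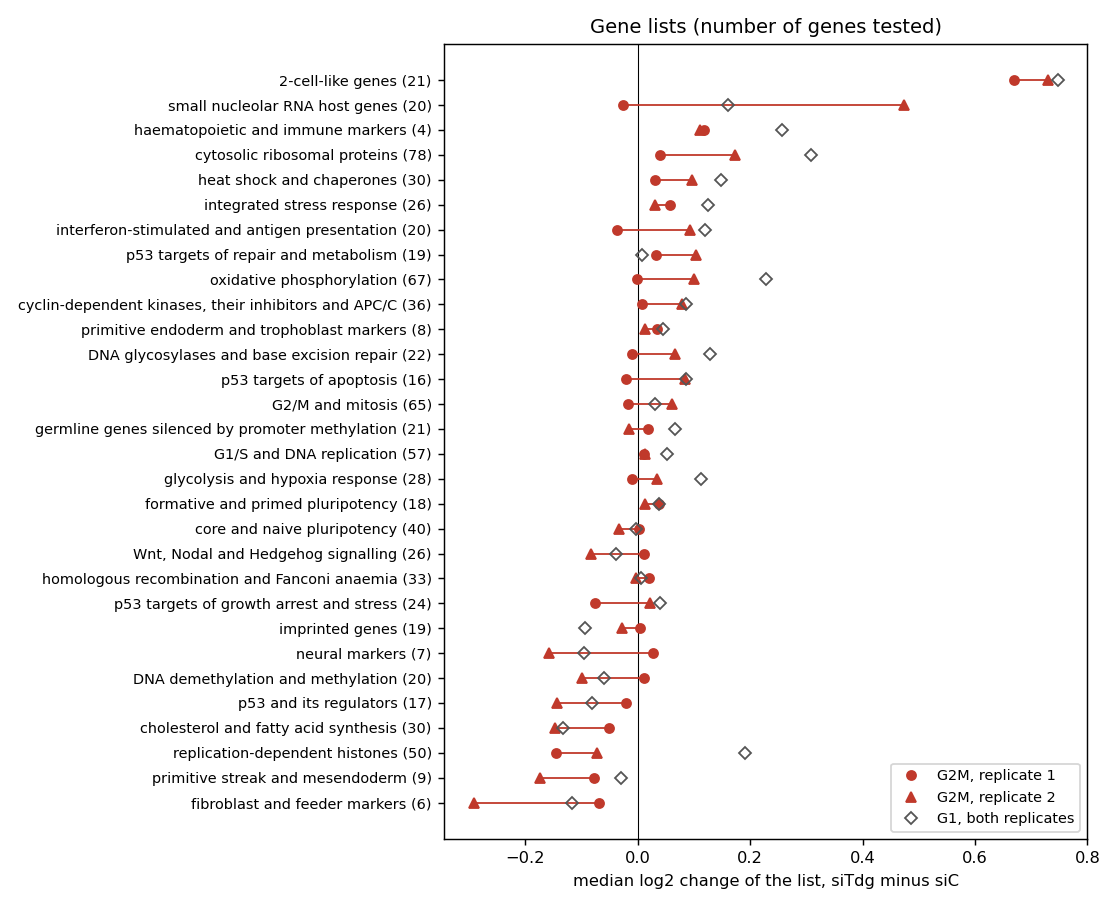
Median log2 change (siTdg minus siC) of each of the 30 gene lists, with the number of tested genes in brackets, for G2M replicate 1 (circles), G2M replicate 2 (triangles, joined by a line) and G1 (open diamonds). The 2-cell-like list lies at 0.67, 0.73 and 0.75, and the small nucleolar RNA host genes show the longest line, from -0.03 to 0.47.

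Whether the siTdg effect differed between G2M and G1 was tested as an interaction in the same model. At an adjusted p under 0.05 limma called 0 genes in either direction, and the smallest adjusted p was 0.99998. At an unadjusted p under 0.05 there were 38 genes, 10 higher in G2M (0.0812%) and 28 lower (0.227%). That number was 455 without siTdg G1 replicate 1, 59 without siC G2M replicate 2 and between 27 and 50 without any other library. The smallest unadjusted p among named genes was that of Cnih2 (0.00356 by limma), at 1.01 and 1.13 RPKM (siC) and 0.596 and 0.555 RPKM (siTdg) in G2M, with a log2 change of -0.55 in G2M and 0.20 in G1. Dnaja4, a heat shock co-chaperone gene, had -0.26 and 0.29, Krtcap3 had -0.24 and 0.45, and Hoxd9, a homeobox gene, had -0.01 and 0.51. The siC and siTdg libraries of G1 and G2M with the same number deviated together, and the model does not hold a term for it.

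Unsorted ESCs at 48 h after siRNA share no library with the sorted cells. There the log2 change of Tdg was -2.10, and 11 tested 2-cell-like genes had a median of 0.39, with 9 above 0. Of the 11657 genes measured in both sets 6089 were above 0 at 48 h, and their median was 0.01. Across 11657 genes measured in both sets, Pearson's r of the log2 changes was 0.165 and Spearman's rank correlation 0.168, as a description, since genes are no independent replicates. In the authors' deposited table for 48 h, with the sign turned to siTdg minus siC, Scpep1 was lower by siTdg (log2 change -0.40, SE 0.09, adjusted p 0.00109). In the authors' deposited table Zscan4f had 1.23 (SE 0.42), Zscan4a 1.21 (SE 0.51), Pramel6 -0.22 (SE 0.25) and Pramel7 -0.83 (SE 0.68), with no adjusted p given. At 48 h Zscan4f was at 0.154 and 2.11 RPKM in siC and 0.308 and 5.30 RPKM in siTdg. Zscan4a was at 0.0749 and 1.24 RPKM in siC and 0.109 and 3.39 RPKM in siTdg. Their replicates thus differed more than the siRNA groups. The fit made here gave log2 changes of 0.75 and 0.65, with unadjusted p of 0.601 and 0.607 by limma.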

How the data were processed

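RNA of sorted E14Tg2A ESCs was depleted of ribosomal RNA and sequenced as stranded libraries, per the labels' protocols. The authors deposited RPKM values per gene, 1 table for siC and 1 for siTdg, each scaled separately, 1 for 48 h and 1 for 96 h, and tables of log2 fold changes, p-values and mean normalised counts (a signal scaled by size factors), per the file headers. Tools and builds named in the submitters' processing notes are TopHat, Bowtie, DESeq2, DiffBind, mm9 and dm3. Neither the gene annotation nor the counting tool is given in the sources used here. Coordinates printed are those of RefSeq's table.

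RPKM values were turned back into reads with the deposited mean normalised counts. This gave whole reads within 0.01 for 100% of positive values, and gene lengths differed by under 0.1% between the 2 tables for 17317 of 17317 genes. Reads per library ranged from 24076402 to 34783249 over the 8 sorted libraries. A chi-square of reads gave at least 5.34 per degree of freedom for every pair of libraries, 19.4 within a group, so no library was counted as a duplicate. Another 4 RPKM columns match no sample and were not used. EB, chromatin, modified DNA and ATAC samples were not analysed here.

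Tables were joined by symbol. Genes averaging at least 0.5 RPKM over the 4 G2M libraries were taken as log2(RPKM + 0.5), which understates changes of low genes, and each column was set to the same median (medians differed by 0.049). limma 3.58.1 in R 4.3.3 fitted 4 group means over 8 libraries with a trend, two-sided, with Benjamini-Hochberg adjustment over 12321 genes and a call at 0.05. Adjusted p-values in the text are from limma unless the authors are named. The fit was run on simulated data with independent noise in each library. It recovered 67.2% of the 2-fold changes and made 9 false calls. Since the real libraries of the same number deviated together, the simulation cannot show how the fit does under that deviation.

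The comparison and the 30 gene lists were chosen with earlier results of these data known. Of 988 list entries 907 matched by symbol, 70 by RefSeq synonym and 11 not at all. Named are Tdg, Trp53, Cdkn1a, Mdm2 and Ccng1, then in each direction 12 genes, called ones first and then the smallest p, among genes whose higher group averaged 1 RPKM or more, whose siC and siTdg libraries did not overlap and whose symbol is not that of a clone, predicted gene or small RNA, then list members with the smallest p and, for the difference between phases, the 4 smallest p. Of the list members so chosen, 2 are not reported here. Other members were named for their known role after their values were seen. Lists are described by counts and medians, with no test of a list. As alternatives, pseudocount, filter, scaling and trend were varied, as were a replicate block, the 4 G2M libraries alone, limma-voom on recovered reads and leaving out each library. Sequences were aligned with Biopython 1.88 in Python 3.11.15.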

Additional observations from a re-analysis of the deposited data

How the results depend on the processing

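Of 20 alternatives, none called a 2-cell-like gene except the replicate block with the 4 G2M libraries only, and the median of that list lay between 0.59 and 0.93. Genes called higher numbered 3 with no filter (Mir6979, Mir7078 and Mir290a), which also gave 1 call higher in the difference between phases. Genes called lower numbered 0 with the 4 G2M libraries only, where Tdg had an adjusted p of 0.110 by limma (log2 change -2.54). With 1 library left out, genes called lower ranged from 0 to 1 and the log2 change of Tdg from -2.76 to -2.32, with adjusted p by limma from 0.0284 to 0.415. The call of Tdg was lost without siC G1 replicate 1 or 2, siC G2M replicate 1 or 2, or siTdg G2M replicate 2. The log2 change of Cdkn1a was -0.026 with no filter. With 1 library left out it ranged from -0.058 to 0.12, with -0.051 without siC G2M replicate 2 and -0.058 without siTdg G2M replicate 2. That of Mdm2 ranged from -0.16 to 0.37 and that of Ccng1 from -0.041 to 0.24, both lowest without siC G2M replicate 2. The cause was not tested. Of the other values for single genes, counts and lists, 1210 were labelled unchanged, 44 moved and 7 gained a call. For a gene, unchanged means the same direction and side of the threshold, and for a count a similar number. For a list median it means a shift smaller than the spread between replicates, even where the sign changed.

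The labels do not say whether a replicate number marks a shared culture, batch or day, so pairing was left out of the main model. With the replicate block 2 genes were called higher (Gm4971 and Mir3064) and 1 lower. The smallest adjusted p of a 2-cell-like gene was then 0.0957 by limma, against 0.99979 in the main model. With the replicate block and the 4 G2M libraries only 38 were called higher and 4 lower, 11 of them in the 2-cell-like list, on 1 residual degree of freedom per gene. In the pairing check same-numbered siC and siTdg deviations of G2M correlated at 0.60 across genes, which is a hint of pairing from the data and not from the sample labels. The names under which the authors deposited these values hold the word paired, without saying what was paired.

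With 2 libraries a group and a median SE of 0.15, a lack of calls does not show equal levels, and genes near the minimum level rest on few reads.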

Other observations

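Transcripts of ribosomal RNA and short nucleolar or microRNA genes gave most of the 27 log2 changes larger than 1 in either direction, and they were named after their values were seen. Rn45s, the precursor of ribosomal RNA, was in G2M at 1497 and 572 RPKM (siC) and 351 and 326 RPKM (siTdg), a log2 change of -1.45 that was not called, against 0.46 in G1. Mir6240 was at 246 and 120.4 RPKM in siC and 54.7 and 103 RPKM in siTdg (-1.19). Lars2, a mitochondrial leucyl-tRNA synthetase gene, was at 360 and 175 RPKM in siC and 77.7 and 163 RPKM in siTdg (-1.16), against -0.05 in G1. Rmrp, the RNA of the RNase MRP complex, was at 18.5 and 3.66 RPKM in siC and 1.73 and 3.22 RPKM in siTdg (-1.63). In these 4 genes siC replicate 1 was the highest G2M library, and siC replicate 2 lay closer to the siTdg libraries. Libraries were depleted of ribosomal RNA, per the labels' protocols, and the part of that step in these values was not tested.

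Small nucleolar RNA host genes followed replicate number. Gas5 was at 137 and 67.8 RPKM in siC and 158 and 98.1 RPKM in siTdg, and Snhg1 at 220.3 and 83.7 RPKM in siC and 219 and 130.3 RPKM in siTdg. Replicate 1 was above replicate 2 in both groups for both genes. Their summed level over 20 genes was 750 and 335 RPKM in siC and 765 and 490 RPKM in siTdg.

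Predicted genes left out of naming by the rule on symbols also stood higher in siTdg. Gm36718 was at 1.07 and 0.896 RPKM in siC and 2.95 and 2.92 RPKM in siTdg (1.21), with 0.96 in G1. Gm5662 was at 7.24 and 4.78 RPKM in siC and 12.9 and 11.3 RPKM in siTdg (0.97), and Gm2022 at 5.93 and 4.86 RPKM in siC and 10.8 and 8.66 RPKM in siTdg (0.79). None was called.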
